A study of Mus musculus with 9 samples.

Results

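The core circadian clock genes analysed here are Arntl, Clock, Per1, Per2, Per3, Cry1, Cry2, Nr1d1, Nr1d2 and Dbp. They were chosen by gene name, with no measured value, and each name matched 1 row of a count table of 54532 genes, so that all 10 of 10 members were found. All 10 passed the filter on low counts, which left 17546 genes for testing. The libraries were made from the hypothalamus of wild type male ICR mice, an outbred stock, at postnatal day 21. LP pups (3 libraries) had dams on a low-fat diet with 10% of energy as fat and received PBS. HP pups (3 libraries) had dams that ate a high-fat high-sucrose diet with 45% of energy as fat, and also received PBS. HA pups (3 libraries) had dams on that same diet and received 4-PBA, a chemical chaperone that also inhibits histone deacetylases. All pups were injected daily from postnatal day 4 to 16 and were reared 10 to a litter, and all dams had started their diet at 5 weeks of age, 5 weeks before mating. The time of day at which tissue was taken is not given in the sources used here. The labels do not say whether pups of a group shared a litter, and p-values therefore reflect the spread between these 9 samples alone, part or all of which may be technical. Title codes, whose meaning is not stated, differ between the diets, so code and diet cannot be told apart.

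The mammalian clock is a feedback loop of transcription. CLOCK and BMAL1, the product of Arntl, bind E-box sequences and switch on the Per and Cry genes, whose proteins return to the nucleus and repress them. The same pair switches on Nr1d1 and Nr1d2, which encode the repressors REV-ERB-alpha and REV-ERB-beta of Arntl, and Dbp, which encodes an activator that binds D-box sequences. Within a day Arntl therefore peaks when Dbp and Nr1d1 are low, and libraries taken at different phases may differ in opposite ways in these genes. In the hypothalamus the suprachiasmatic nucleus holds the master clock, and most other nuclei keep clocks of their own. Per1 and Per2 also respond within a short time to light, neuronal activity and glucocorticoids.

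These 3 upstream stretches, of Per1, Cry1 and Per3, are printed because they hold matches to the E-box or the D-box. Whether the loop acts through these matches was not tested. They are the 250 bases before a RefSeq start site (GRCm38.p6), 5′ to 3′ on the strand of the gene, and capitals mark every match to the motifs searched. The Per1 stretch is on the plus strand at chr11:69098699-69098948, inside the deposited Per1 gene model, and 1 of its bases is exonic in GENCODE M21. The Cry1 stretch is on the minus strand at chr10:85185055-85185304, and its last 10 bases are exonic in that annotation. The Per3 stretch is on the minus strand at chr4:151044666-151044915, outside the gene model.
Per1: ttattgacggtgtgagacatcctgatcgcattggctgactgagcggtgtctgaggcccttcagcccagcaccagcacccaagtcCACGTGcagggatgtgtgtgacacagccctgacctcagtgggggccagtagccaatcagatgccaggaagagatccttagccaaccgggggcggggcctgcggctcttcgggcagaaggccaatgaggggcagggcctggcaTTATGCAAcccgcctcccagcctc
Cry1: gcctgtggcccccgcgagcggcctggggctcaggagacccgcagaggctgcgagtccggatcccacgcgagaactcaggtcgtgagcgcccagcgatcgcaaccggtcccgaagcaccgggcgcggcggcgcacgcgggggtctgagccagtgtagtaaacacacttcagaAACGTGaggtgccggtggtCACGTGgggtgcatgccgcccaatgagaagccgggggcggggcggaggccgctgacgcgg
Per3: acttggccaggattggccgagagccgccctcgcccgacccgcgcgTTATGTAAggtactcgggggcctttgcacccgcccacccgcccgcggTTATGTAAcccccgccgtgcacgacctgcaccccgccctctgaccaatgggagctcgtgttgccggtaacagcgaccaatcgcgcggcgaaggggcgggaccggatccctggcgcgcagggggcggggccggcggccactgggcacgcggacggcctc

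The Per1 stretch held an E-box (CACGTG) from base -166 to -161 and a D-box match (TTATGCAA) from -24 to -17, with -1 as the base before the start site. In the Cry1 stretch an E-box lay at -60 to -55, next to a match to the variant CACGTT, read on the other strand as AACGTG, at -79 to -74. Per3 held 2 D-box matches (TTATGTAA), at -205 to -198 and -158 to -151. RefSeq stretches were found for 9 of the 10 members, 13 stretches in all, and none for Per2. On both strands, CACGTG was found upstream of 2 member genes (Cry1 and Per1) and in 6.02% of all 32851 stretches of this length. CACGTT was found upstream of 3 member genes (Cry1, Cry2 and Nr1d1) and in 3.85% of all stretches, and the D-box TTATGNAA upstream of 2 (Per1 and Per3) and in 3.07%. The core letters of the REV-ERB and ROR element, TAGGTCA and TGGGTCA, and the cyclic AMP element TGACGTCA were found in 0 of the 13 stretches, and in 2.23%, 3.24% and 1.55% of all. None of these motifs overlapped another in the 13 stretches. Bases outside these stretches were not searched, so the counts of 0 hold for the stretches alone. A match is a description of letters and not of a bound site.

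The libraries held between 18226924 and 21823961 counts, and the members between 380 and 2529 counts per library. Summed markers of hypothalamic neurons lay between 655 and 802 CPM (read counts relative to TMM-scaled library sizes), and of these 12 markers Kiss1 averaged 3 counts or less. Markers of other tissue and cell types differed between libraries. LP replicate 2 had a sum of 624 CPM over the 8 striatal markers, LP replicate 1 one of 479 CPM, and the other 7 libraries sums of 320 to 341 CPM. HA replicate 3 had 1207 CPM over the 10 meningeal fibroblast markers, LP replicate 3 had 625 CPM, and the rest had 76.8 to 169 CPM. The 8 oligodendrocyte markers reached from 11700 CPM (HA replicate 3) to 20690 CPM (LP replicate 2). The 9 pituitary and pars tuberalis markers, of which Prl and Pou1f1 averaged 3 counts or less, summed to 31.6 CPM (HP replicate 1) to 69.2 CPM (HA replicate 3). Their part in the levels of the clock genes was not tested. The 13 markers of the suprachiasmatic nucleus, all above a mean of 3 counts, summed to 595 to 708 CPM in LP, 637 to 789 CPM in HP and 563 to 922 CPM in HA. Avp, the vasopressin gene, which other hypothalamic nuclei also express, made up most of that sum, with 385 to 726 CPM, and Vip lay between 11.3 and 17.1 CPM.

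No core clock gene passed the test in any comparison of groups. The highest library of a gene was 1.163 times (Nr1d2) to 1.304 times (Dbp) the lowest. With edgeR's quasi-likelihood test, 0 of 10 members passed an adjusted p of 0.05 when HP was set against LP, HA against HP or HA against LP, or in the test of any difference among the groups. The share of all genes called was 0.0114% in HP against LP, 0.0114% in HA against HP, 0% in HA against LP and 0.0114% for any difference. At an unadjusted p under 0.05, 1 member (Dbp) stood in HP against LP, 1 (Dbp) in HA against HP, 0 in HA against LP and 1 (Dbp) for any difference, where 6.12%, 5.42%, 6.51% and 5.96% of all genes did. DESeq2 called 0 members in the 3 comparisons and 0.143%, 0.0496% and 0.127% of all genes in the same order, and limma-voom called 0 members and 0.0114%, 0.0114% and 0% of all genes. The lowest adjusted p of a member was 0.798 (Dbp, HP against LP, edgeR).

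**Figure D1:**
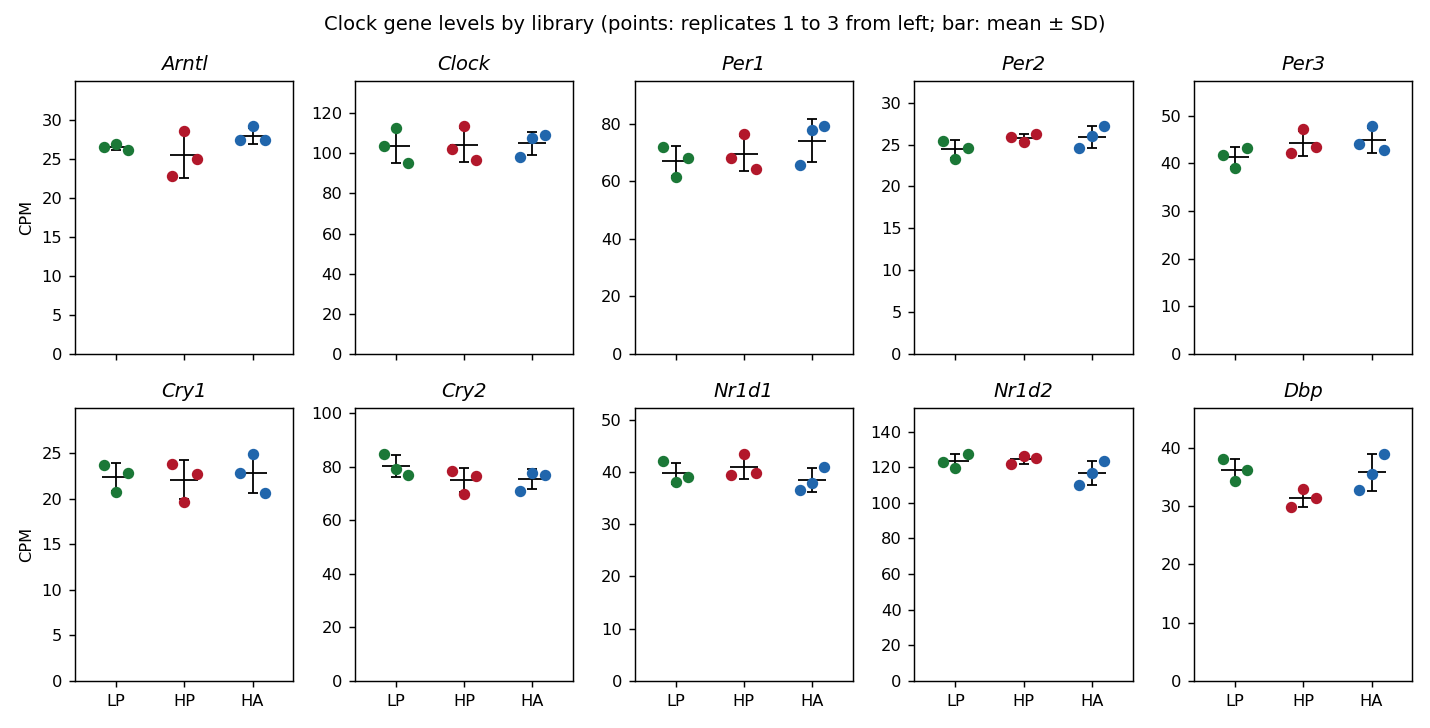
Levels of the 10 clock genes in each library, in CPM on axes that start at 0, with replicates 1 to 3 of LP, HP and HA from left to right and bars for the mean ± SD (n = 3). The 9 points of each gene lie within 1.163 to 1.304 times of each other, and Dbp is the gene whose HP points all lie below its LP points.

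The activators were described first. Arntl (ENSMUSG00000055116, chromosome 7, 113207465 to 113314126, GRCm38, as are all positions of genes below) stood at 26.5, 26.9 and 26.1 CPM in LP replicates 1 to 3, at 22.8, 28.6 and 24.9 CPM in HP and at 27.4, 29.1 and 27.4 CPM in HA. All HA libraries thus lay above all LP libraries, by a small margin, and the lowest and second highest of the 9 libraries were both in HP. The log2 fold change was -0.056 (SE 0.084) in HP against LP, 0.13 (SE 0.083) in HA against HP and 0.078 (SE 0.083) in HA against LP (edgeR, adjusted p = 0.946, 0.84 and 0.877). Clock (ENSMUSG00000029238, chromosome 5, 76209868 to 76304792), the partner of BMAL1, stood at 103.7, 112.5 and 95.3 in LP, 102.4, 113.4 and 96.5 in HP and 98.4, 107.7 and 109.0 CPM in HA. Its groups overlapped in every comparison, and its mean differed between groups by less than the SD within any of them: 103.8 ± 8.61 CPM in LP, 104.1 ± 8.6 CPM in HP and 105.0 ± 5.79 CPM in HA (SD, n = 3). The 3 log2 fold changes of Clock lay between 0.0033 and 0.016.

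Among the Per genes, which encode the repressors whose loss shortens or abolishes rhythms, Per1 (ENSMUSG00000020893, chromosome 11, 69095217 to 69109960) stood at 71.8, 61.6 and 68.0 in LP, 68.2, 76.3 and 64.4 in HP and 65.7, 77.8 and 79.0 CPM in HA. LP replicate 2 was the lowest and HA replicate 3 the highest, and each group held a library within the range of the others. Its log2 fold change of 0.14 (SE 0.089) in HA against LP was the largest positive estimate of a member in that comparison and did not pass (edgeR, adjusted p = 0.816). Per2 (ENSMUSG00000055866, chromosome 1, 91415982 to 91459324) stood at 25.4, 23.3 and 24.6 in LP, 25.9, 25.4 and 26.3 in HP and 24.6, 26.04 and 27.2 CPM in HA. Per3 (ENSMUSG00000028957, chromosome 4, 151003652 to 151044665) stood at 41.8, 39.1 and 43.2 in LP, 42.1, 47.1 and 43.5 in HP and 44.0, 47.8 and 42.8 CPM in HA. All 3 Per genes were lowest in LP replicate 2, and for Per2 and Per3 the groups also overlapped. In HA against LP the log2 fold change of Per2 was 0.085 (SE 0.067) and that of Per3 0.12 (SE 0.067), with adjusted p of 0.847 and 0.816 (edgeR).

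The cryptochromes, the other repressors of CLOCK and BMAL1, did not pass either. Cry1 (ENSMUSG00000020038, chromosome 10, 85131700 to 85185064) stood at 23.7, 20.8 and 22.8 in LP, 23.9, 19.7 and 22.7 in HP and 22.8, 25.0 and 20.6 CPM in HA, and its groups covered nearly the same range. Cry2 (ENSMUSG00000068742, chromosome 2, 92403646 to 92434043) stood at 84.9, 79.0 and 77.0 in LP, 78.5, 69.8 and 76.7 in HP and 71.0, 77.8 and 77.0 CPM in HA. LP replicate 1 was the highest library for Cry2 and HP replicate 2 the lowest. The log2 fold change of Cry2 was -0.098 (SE 0.061) in HP against LP and -0.094 (SE 0.061) in HA against LP (edgeR, adjusted p = 0.88 and 0.828), and that of Cry1 lay between -0.021 and 0.045 in the 3 comparisons.

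The REV-ERB genes differed by as little. Nr1d1 (ENSMUSG00000020889, chromosome 11, 98767932 to 98775333) stood at 42.0, 38.0 and 39.1 in LP, 39.5, 43.5 and 39.7 in HP and 36.5, 38.0 and 40.9 CPM in HA. Nr1d2 (ENSMUSG00000021775, chromosome 14, 18204054 to 18239127) stood at 122.9, 119.8 and 127.6 in LP, 121.7, 126.5 and 125.0 in HP and 109.8, 116.9 and 123.2 CPM in HA. HA replicate 1 was the lowest library for both genes, and HA overlapped HP and LP in both. In HA against HP the log2 fold change was -0.090 (SE 0.067) for Nr1d1 and -0.094 (SE 0.048) for Nr1d2 (edgeR, adjusted p = 0.846 and 0.84). Nr1d1 shares 263 of its 3077 exonic bases with Thra, a thyroid hormone receptor gene on the other strand that averaged 9767 counts against 775 for Nr1d1, and the library kit is not described as stranded, so reads of the shared bases cannot be told apart.

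Dbp (ENSMUSG00000059824, chromosome 7, 45705088 to 45710203), a direct output of the loop that has one of the strongest daily rhythms in many tissues, stood at 38.1, 34.2 and 36.2 in LP, 29.9, 33.0 and 31.4 in HP and 32.8, 35.5 and 39.0 CPM in HA. The HP libraries lay below all LP libraries. HA spread over the range of LP and met HP only at its edge, where the lowest HA library (replicate 1) lay just below the highest HP library (replicate 2). The means were 36.2 ± 1.94 CPM in LP, 31.4 ± 1.54 CPM in HP and 35.8 ± 3.11 CPM in HA (SD, n = 3). The log2 fold change was -0.20 (SE 0.077, 95% interval -0.37 to -0.033) in HP against LP and 0.19 (SE 0.077, 95% interval 0.016 to 0.36) in HA against HP, and neither passed (edgeR, unadjusted p = 0.0239 and 0.0354, adjusted p = 0.798 and 0.84). These 2 comparisons share the HP libraries, so they are not independent of each other. In HA against LP the log2 fold change of Dbp was -0.017 (SE 0.076). All 8 oligodendrocyte markers had a higher estimate in HP than in LP and a lower one in HA than in HP, with 0 of 8 called and median log2 fold changes of 0.20 and -0.29 (edgeR), and their part in the level of Dbp was not tested. Dbp shares 539 of its 2993 exonic bases with Sphk2, a sphingosine kinase gene on the other strand, which averaged 662 counts against 673 for Dbp. For Sphk2 the estimate was 0.059 (SE 0.078) when HP was set against LP and 0.019 (SE 0.078) when HA was set against HP (log2, edgeR, adjusted p = 0.939 and 0.978).

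Over the 10 members and 3 comparisons, the 95% intervals, which are not adjusted for the number of tests, reached from 0.772-fold (Dbp, HP against LP) to 1.28-fold (Dbp, HA against HP). In HP against LP the interval of Nr1d2, 0.936-fold to 1.09-fold, was narrower than that of Dbp. That of Cry1, 0.845-fold to 1.15-fold, was wider. The median log2 fold change of the members was 0.0073 in HP against LP, 0.016 in HA against HP and 0.020 in HA against LP, and the median of all genes tested was -0.0024, 0.0027 and 0.0057. The median size of the change, regardless of sign, was 0.055, 0.068 and 0.080 for the members and 0.086, 0.086 and 0.089 for all genes. The libraries of HP and LP did not overlap for 1 of 10 members (Dbp), those of HA and LP for 1 (Arntl), and those of HA and HP for 0, where 11.8%, 10.9% and 11.8% of all genes tested were without overlap.

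**Figure D2:**
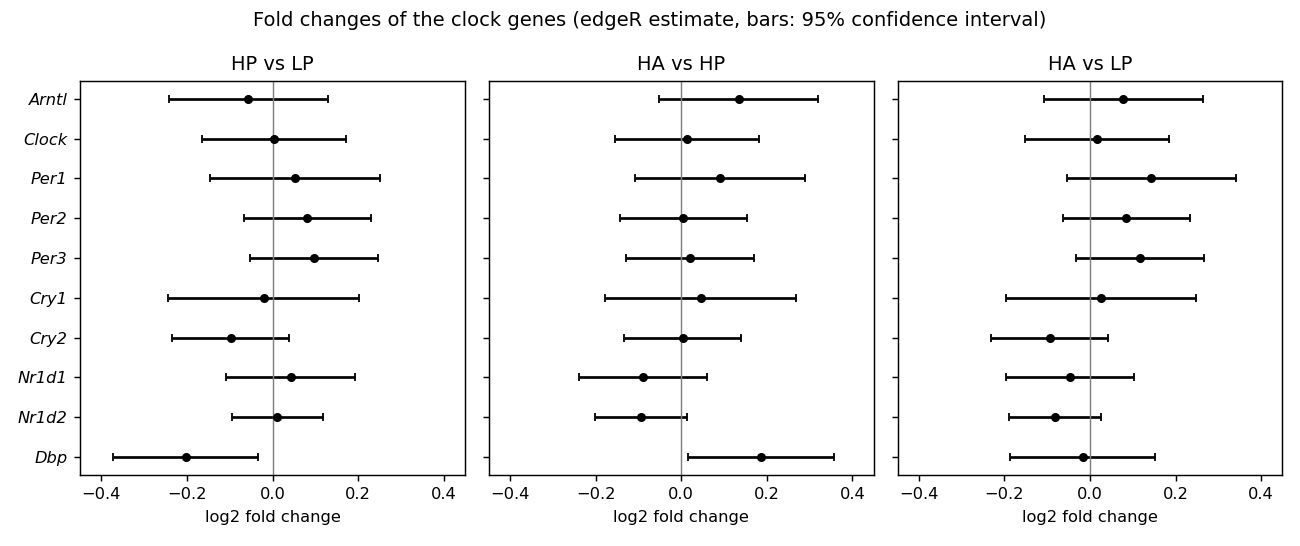
Log2 fold change of each clock gene between HP and LP, HA and HP, and HA and LP (points: edgeR estimate; bars: 95% confidence interval, not adjusted for the number of tests). The estimates lie between -0.20 and 0.19, and 2 of the 30 intervals, both of Dbp, do not reach 0.

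Per length, Nr1d2 was the most abundant member and Arntl the least. The deposited FPKM (read counts scaled by gene length and library total) of Nr1d2 averaged 22.4 over the 9 libraries, with a range of 20.2 to 23.6 that lay above the ranges of all other members. Nr1d1 followed at 12.9 FPKM, Per1 at 12.4 FPKM, Cry2 at 12.1 FPKM and Dbp at 11.5 FPKM, and these 4 neighbours overlapped in their ranges. Clock averaged 7.57 FPKM and Cry1 6.69 FPKM, again with overlapping ranges. Per3 at 4.51 FPKM and Per2 at 4.32 FPKM overlapped as well, and Arntl at 3.53 FPKM (3.02 to 3.87) lay below them all. The order holds for whole hypothalamus, where fewer cells of a type and less RNA per cell cannot be told apart.

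Libraries of a group differed in the clock genes about as much as in other genes of like abundance. The pooled SD of log2 CPM within groups was 0.057 for Nr1d2 and 0.058 for Per2, the smallest, and 0.13 for both Per1 (0.129) and Cry1 (0.128), the largest. Among the 6168 genes with mean counts in the range of the members (438 to 2370), whose median SD was 0.081, the members stood between the percentile of 20 (Nr1d2) and that of 82.9 (Per1). Cry1 stood at the percentile of 82.6, Clock at 72.5, Arntl at 67.4 and Dbp at 62.2, and Per3, Cry2 and Nr1d1 between 46.4 and 48.1. Counting error alone would give an SD of 0.065 for Per2, above the 0.058 measured, and of 0.039 for Per1 and 0.069 for Cry1, below the 0.129 and 0.128 measured.

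**Figure D3:**
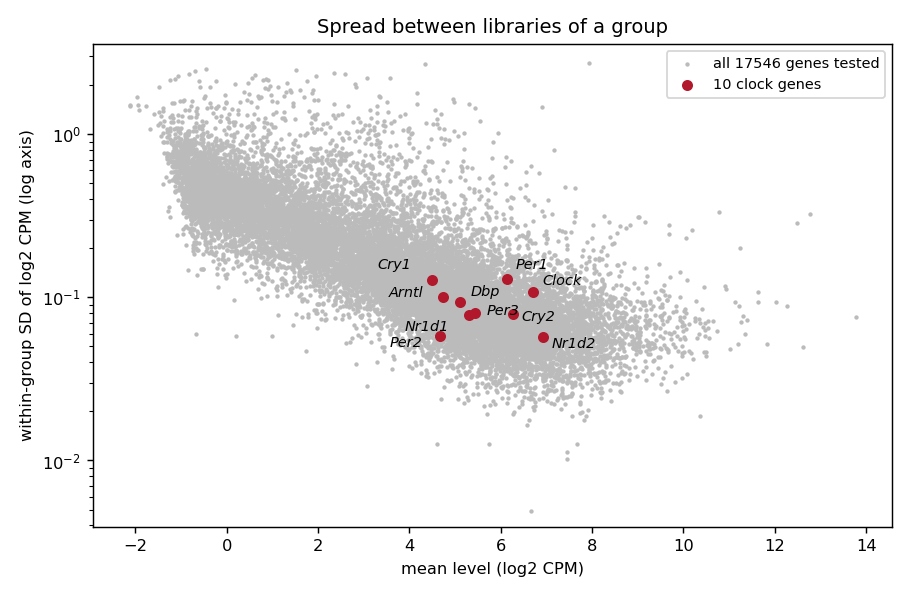
Pooled within-group SD of log2 CPM (log axis) against mean log2 CPM for all 17546 genes tested (grey) and the 10 clock genes (red). The clock genes lie inside the band of other genes at their level, with Nr1d2 and Per2 at 0.057 and 0.058 and Per1 and Cry1 near 0.13.

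To ask whether libraries differed in clock phase, 6 genes that CLOCK and BMAL1 are known to switch on through E-boxes were set against Arntl and Clock. These were Per1, Per2, Per3, Nr1d1, Nr1d2 and Dbp. Cry1 and Cry2, which the same pair also switches on, were left out of these targets. Each gene was centred on its mean log2 CPM over the 9 libraries, and the mean of Arntl and Clock was subtracted from the mean of the 6 targets. This balance was 0.044, -0.15 and 0.083 in LP replicates 1 to 3, 0.079, -0.053 and 0.075 in HP and -0.055, -0.048 and 0.029 in HA. All 9 libraries thus lay within 0.24 of each other on the log2 scale, with LP replicate 2 the lowest and LP replicate 3 the highest, and every group held values on both sides of 0. The group means were -0.0090 ± 0.13 in LP, 0.034 ± 0.075 in HP and -0.025 ± 0.046 in HA (SD, n = 3), and the largest difference between groups, HP against HA, was below the SD of LP and of HP and above that of HA. No test was made of it. How large a balance a difference in phase would give was not measured here, so these values cannot tell equal phases from unlike ones. LP replicate 2, which was low in all 3 Per genes and high in Clock, was also the library with the highest striatal marker sum, and the part of that tissue in the balance was not tested.

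**Figure D4:**
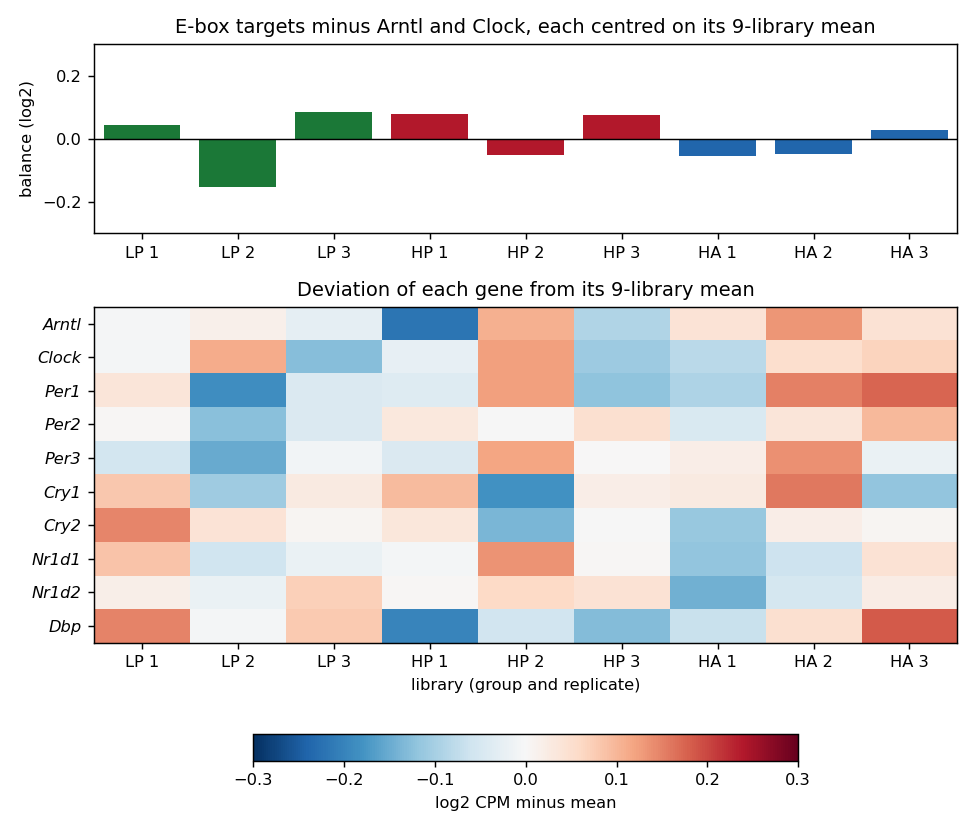
Top: balance of 6 E-box targets against Arntl and Clock in each library, as a difference of mean log2 CPM after centring each gene on its mean (green LP, red HP, blue HA). Bottom: deviation of each gene from its mean over the 9 libraries in log2 CPM, between -0.22 (Arntl in HP replicate 1) and 0.18 (Dbp in HA replicate 3), with both colours in each group.

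Pairs of members were also compared across the 9 libraries, some of which share a title code. Arntl is known to peak at the opposite time of day to Dbp and Nr1d1. Arntl and Dbp had a Pearson r of 0.54 (Spearman rho 0.42; exact permutation p = 0.132 and 0.27, adjusted over 45 pairs 0.706 and 0.936), which became 0.14 without HP replicate 1 and HA replicate 2, the libraries farthest from the median of Arntl. Arntl and Nr1d1 had an r of 0.049 (rho -0.067, exact permutation p = 0.9 and 0.88, adjusted p = 0.921 and 1.0), and 0.29 without the same 2 libraries. Of the 12 pairs that join Arntl or Clock with an E-box target, 9 had a positive r and 3 a negative one, with a median of 0.14 and a range of -0.23 to 0.54. Within the 15 pairs of E-box targets 13 were positive, with a median of 0.23.

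The largest r was that of Nr1d1 and Nr1d2, at 0.74 (rho 0.68, exact permutation p = 0.0221 and 0.0503, adjusted p = 0.706 and 0.936). It was 0.45 without HP replicate 2 and HA replicate 1. Per1 and Per2 had an r of 0.67 (rho 0.58, exact permutation p = 0.045 and 0.108, adjusted p = 0.706 and 0.936), and 0.44 without HA replicate 2 and HA replicate 3. No pair of the 45 passed an adjusted p of 0.05 by Pearson's or Spearman's measure, and 2 by Pearson's and 1 by Spearman's (Per3 with Cry2, rho -0.73) had an unadjusted exact permutation p under 0.05. Title codes held at most 4 libraries each, too few for a correlation within one.

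With the group means taken out of each gene, the E-box targets moved together more closely than over the 9 libraries as they stand. Of the 15 pairs of targets 15 then had a positive r, with a median of 0.66 and a range of 0.066 to 0.93. Nr1d1 and Dbp had the highest, at 0.93 within groups against 0.22 without that step (rho within groups 0.92, exact permutation within groups p = 0.00463 and 0.00926, adjusted over 45 pairs 0.208 and 0.208), and 0.89 without HP replicate 2 and HA replicate 3. In each of the 3 groups Nr1d1 and Dbp ranked the libraries alike: highest in LP replicate 1, HP replicate 2 and HA replicate 3, and lowest in LP replicate 2, HP replicate 1 and HA replicate 1.

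Per1, which was highest in the same 3 libraries, had a within-group r of 0.87 with Nr1d1 and 0.84 with Dbp, and Nr1d2 one of 0.86 with Dbp (exact permutation p = 0.0231, 0.037 and 0.0463, adjusted p = 0.509 each). These 3 values were 0.73, 0.61 and 0.62 without the 2 libraries farthest from the group mean of the first gene. In the same check Per2 with Per3 went from 0.066 to -0.867, and Per2 with Nr1d2 from 0.732 to 0.074. Per1 with Per2 went from 0.627 to 0.839. The share of positive r among other pairs of genes was not computed. In all, 4 of the 45 pairs had an unadjusted p under 0.05 and 0 passed the adjustment. The smallest p that the 216 arrangements within groups can give is 0.00463, which for a single pair does not reach the adjusted threshold. The 12 pairs of Arntl or Clock with a target had a median within-group r of 0.34, with 10 positive and 2 negative. Cry1, left out of the targets, had a within-group r of -0.124 with Per1, -0.405 with Nr1d1, -0.287 with Nr1d2 and -0.334 with Dbp. It was 0.22 with Per2 and 0.152 with Per3. For Cry2 the within-group r with the targets lay between -0.301 (Per3) and 0.679 (Per2). The summed suprachiasmatic markers ranked the libraries of each group as Nr1d1 and Dbp did, with 708, 595 and 625 CPM in LP, 637, 789 and 724 in HP and 563, 837 and 922 in HA replicates 1 to 3. Avp, which made up most of these sums, gave that order by itself, with 531.5, 444.1 and 448.5 CPM in LP replicates 1 to 3. It stood at 455.7, 586.9 and 553.7 in HP and 384.7, 638.5 and 725.7 in HA. Among the markers, only Avp gave that order in every group. Vip gave the same order in HP and HA but was highest in LP replicate 3 (13.1 CPM). Zfhx3 and Rgs16 came next to Avp in mean level. Zfhx3 gave the order in LP, but in HP it was highest in replicate 1 (43.2 CPM) and in HA lowest in replicate 3 (35.6 CPM). Rgs16 gave it in HA, but in LP it was highest in replicate 3 (36.8 CPM) and in HP lowest in replicate 3 (31.1 CPM). The part of these markers in the correlations was not tested.

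**Figure D5:**
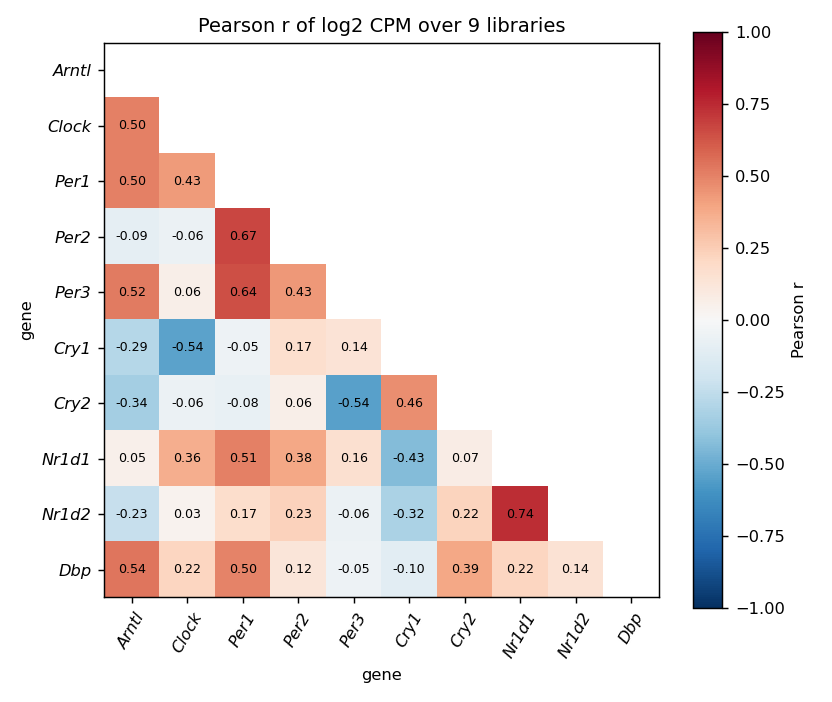
Pearson r of log2 CPM over the 9 libraries for each of the 45 pairs of clock genes, from -1 (blue) to 1 (red). Arntl is positive with Dbp (0.54) and near 0 with Nr1d1 (0.05), and the highest value is that of Nr1d1 with Nr1d2 (0.74).

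Genes with the most similar pattern over the 9 libraries were taken from 13570 named protein-coding genes with a mean of at least 1 CPM. For Arntl they were Prokr1, Pxdn, Cpne8, Rtn4rl1 and Dok3 (Pearson r 0.96 to 0.90), and for Dbp they were Ccdc96, Agbl3, Supv3l1, Zfp362 and Rpa2 (r 0.96 to 0.93). For Per1 they were Six6, Nkx2-1, Kmt2c, Ccdc82 and Slc43a3 (r 0.95 to 0.92). Each was the outcome of a search over all these genes, and no chance level was computed for it. None of these 15 genes was a member of the clock set: the nearest member ranked 851 for Arntl (Dbp), 1344 for Dbp (Arntl) and 446 for Per1 (Per2).

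Six6 and Nkx2-1 are transcription factors of the hypothalamus, and Six6 is on the list of suprachiasmatic markers. Six6 stood at 10.3, 7.39 and 9.62 in LP, 9.85, 13.9 and 8.84 in HP and 10.5, 13.9 and 14.0 CPM in HA. Nkx2-1 stood at 39.9, 35.0 and 39.6 in LP, 41.8, 46.3 and 38.3 in HP and 38.6, 45.6 and 46.4 CPM in HA. As for Per1, the lowest of the 9 libraries was LP replicate 2 and the highest HA replicate 3 for both. The part of tissue content in the level of Per1 was not tested. The 18 immediate early genes, which share inducers with Per1, summed to 353 to 384 CPM in LP, 370 to 413 CPM in HP and 450 to 485 CPM in HA. Their median log2 fold change was 0.11 in HP against LP, 0.32 in HA against HP and 0.33 in HA against LP. Of the 18, 0 were called in any comparison (edgeR), and 2, 7 and 10 had an unadjusted p under 0.05 in the same order, where 6.12%, 5.42% and 6.51% of all genes did. The sum of 13 glucocorticoid response genes lay between 938 CPM (HA replicate 1) and 1143 CPM (HP replicate 2), with median log2 fold changes of 0.040, -0.21 and -0.071 in that order. Of these 13, 0 were called (edgeR), and 3, 4 and 1 had an unadjusted p under 0.05. The part of either list in the level of Per1 was not tested.

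The other genes of the pathway were counted in a list of 30, all of which passed the filter: paralogues of the activators, ROR genes, PAR bZIP factors, kinases, ligases and cofactors. In each of the 3 comparisons 0 of 30 were called (edgeR), 14 were higher and 16 lower in HP than in LP, 13 higher and 17 lower in HA than in HP, and 17 higher and 13 lower in HA than in LP. At an unadjusted p under 0.05 there were 1, 0 and 5 of the 30 in the same order, where 6.12%, 5.42% and 6.51% of all genes were. The medians of their log2 fold changes were -0.00070, -0.020 and 0.0012, close to those of all genes given above.

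Arntl2, the paralogue of Arntl, had the smallest p of the list in both comparisons with LP. It stood at 1.80, 3.08 and 1.24 in LP, 3.95, 4.72 and 3.40 in HP and 4.05, 7.17 and 3.41 CPM in HA, so that all 6 HP and HA libraries were above all LP libraries. Its log2 fold change was 0.97 (SE 0.36) in HP against LP and 1.25 (SE 0.36) in HA against LP, and neither passed (edgeR, adjusted p = 0.796 and 0.645). Npas2, the paralogue of Clock, stood at 12.03, 12.7 and 10.9 in LP, 8.35, 10.9 and 9.20 in HP and 7.09, 9.89 and 9.91 CPM in HA. Its libraries did not overlap between LP and HP or between LP and HA, with log2 fold changes of -0.33 (SE 0.15) and -0.41 (SE 0.15) (edgeR, adjusted p = 0.82 and 0.756). Between LP and HP the margin was 10.91 CPM (LP replicate 3) against 10.89 CPM (HP replicate 2). Of all genes tested, 11.8% were without overlap in HP against LP and 10.9% in HA against LP, the shares to set beside Arntl2 and Npas2. NPAS2 is abundant in forebrain, and LP replicates 1 and 2, the libraries with the most striatal marker counts, were also the highest in Npas2, a part that was not tested.

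The deubiquitinase gene Usp2, a rhythmic output of the clock, stood at 24.7 ± 3.69 CPM in LP, 22.01 ± 1.28 CPM in HP and 19.95 ± 1.83 CPM in HA (SD, n = 3), with an adjusted p of 0.756 in HA against LP (edgeR). Bhlhe40, which encodes the repressor DEC1, averaged 50.6 ± 3.59 CPM over the LP libraries and 45.8 ± 1.05 CPM over the HP libraries (SD, n = 3; edgeR, adjusted p = 0.829). In HA against HP the smallest p of the list belonged to Ppp1cb, Nampt and Prkaa2, with log2 fold changes of -0.086, -0.073 and 0.11 and an adjusted p of 0.84 each (edgeR).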

How the data were processed

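Hypothalamic RNA from 9 libraries was sequenced by the authors, with 3 µg of input and a NEBNext Ultra kit per the labels' protocols. The submitters' processing notes name HISAT2 2.0.5, featureCounts 1.5.0-p3, DESeq2 1.16.1 and mm9. The authors deposited raw read counts per gene and FPKM values for the same genes. The deposited FPKM were 0.981 to 1.01 times FPKM recomputed from counts, gene length and library total. Of 54495 identifiers shared with GENCODE M21 (GRCm38), 98.3% had the deposited start and end, all 10 clock genes included, so positions are read as GRCm38.

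Counts of all 9 libraries were fitted with edgeR 4.0.16 (R 4.3.3; TMM, filterByExpr, quasi-likelihood, group as the only term), two-sided, with Benjamini-Hochberg adjustment over all 17546 genes and a threshold of 0.05. Each SE was derived from the estimate and its F statistic. The fit was also run on simulated counts, whose changes were larger than any estimated for a member. Its outcome is not given here and does not bear on changes as small as theirs. Log2 CPM used a prior count of 2. With 3 libraries per group, exact permutation of a single gene reaches 0.1 at best and was not used. Correlations had exact permutation tests over 9 libraries, and within groups after the group means were taken out. Within groups the chi-square per degree of freedom of library pairs lay between 4.73 and 25.8, more than reads of 1 library sequenced again would give. Pairs across groups were not checked, and separate libraries from the same RNA cannot be told apart this way. Alternatives were RLE, library totals, other filters, DESeq2 1.42.0, limma-voom (limma 3.58.1), 2 groups only, a replicate block, the title code, and libraries left out. No measured value entered the rule that named the members, but the genes and lists were chosen with earlier results of these data known. Named are all members, the 3 genes of smallest p of the wider list per comparison, and the 5 genes most like Arntl, Dbp and Per1.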

Additional observations from a re-analysis of the deposited data

How the results depend on the processing

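No member was called in any of 76 counts over the alternatives, and the lowest adjusted p was 0.601 (Dbp, HP against LP, without LP replicate 3 and HA replicate 3 together). The log2 fold change of Dbp lay between -0.242 and -0.164 in HP against LP and between 0.123 and 0.241 in HA against HP over the alternatives. Of 580 member estimates under 20 alternatives, 542 kept their sign and 38, belonging to 14 estimates near 0, changed it, to at most 0.066 in size. Scaling by library totals gave -0.001 for Clock in HP against LP. Leaving out LP replicate 3 and HA replicate 3 together gave Clock -0.054, -0.011 and -0.066 (HP against LP, HA against HP, HA against LP) and, in HA against HP, Per2 -0.027 and Cry2 -0.01. Leaving out LP replicates 1 and 2 together, with the remaining LP library assumed to vary like the other groups, gave Nr1d2 -0.039 in HP against LP and Cry1 -0.005 in HA against LP. With 1 library left out in turn, HP against LP ranged from -0.151 to 0.019 for Arntl, -0.065 to 0.065 for Clock, -0.02 to 0.108 for Per1, -0.078 to 0.054 for Cry1, -0.006 to 0.085 for Nr1d1 and -0.01 to 0.036 for Nr1d2. HA against HP ranged from -0.043 to 0.083 for Clock, -0.027 to 0.037 for Per2, -0.023 to 0.072 for Per3, -0.027 to 0.116 for Cry1 and -0.042 to 0.041 for Cry2. HA against LP ranged from -0.038 to 0.074 for Clock, -0.043 to 0.093 for Cry1 and -0.082 to 0.039 for Dbp.

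Counts over all genes moved more than the members did, and the cause was not tested. In the order HP against LP, HA against HP, HA against LP and any difference, edgeR called 2, 2, 0 and 2 genes, DESeq2 32, 8, 27 and 54, edgeR with no low count filter 53, 5, 41 and 90, and edgeR without LP replicate 3 and HA replicate 3 together 37, 10, 23 and 45. With 1 library left out the counts ranged from 1 to 21, 1 to 9, 0 to 14 and 1 to 19, with the highest without LP replicate 3, except in HA against HP, where it was without HA replicate 3. Fits to 2 groups called 4 genes in HP against LP and 1 in HA against LP, library totals 1 in HP against LP, and the fit without LP replicates 1 and 2 together 1 for any difference. Same-numbered libraries of HP and HA share a title code as well as a number, while those of LP share only the number with them. Of the same-numbered pairs, 6 of 9 had deviations correlated above 0.1 (range -0.028 to 0.486). For HP with HA these were 0.082, 0.004 and 0.118 in replicates 1 to 3. Not every library correlated best with its own number, and whether same-numbered pups of HP and HA were matched is not stated. With the replicate block 4 genes were called in HP against LP and 0 members in any comparison, with a lowest adjusted p of 0.739. The clock balance kept within 1 SD of its value, and 0 of 45 pairs passed, under every alternative run for them, including group means taken out, which was added after the values were seen. With LP replicate 2 left out the balance of HP minus LP was -0.03 in place of 0.043.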

Other observations

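Hlf, which encodes a PAR bZIP factor related to DBP and was chosen here after its values were seen, was highest in HA replicate 3 (113 CPM) and LP replicate 3 (108 CPM), with 68.5 to 84.2 CPM elsewhere. These 2 libraries were also the highest in the summed meningeal fibroblast markers, with 1207 and 625 CPM, where no other library exceeded 169 CPM. Tef, the third gene of that family, lay between 260 and 280 CPM in all 9 libraries.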
